A study of Danio rerio with 28 samples.

Results

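The mRNAs of 5 genes that the zebrafish oocyte stores for the embryo were followed through the first hours of development: mos (ENSDARG00000069744), zar1 (ENSDARG00000019706), zar1l (ENSDARG00000055973), slbp2 (ENSDARG00000069428) and cth1 (ENSDARG00000057328). They were chosen by gene identity, with earlier results of these data known, 5 of the 33737 genes counted, and all 5 had counts in each of the 28 libraries. Whole embryos of the AB strain were collected between 0 and 6 hours post fertilisation (hpf), in 14 groups of 2 libraries. The 20 poly(A)-selected libraries held wild type (WT) at 0, 2, 3, 4 and 6 hpf, embryos with a morpholino (MO, an antisense oligonucleotide) against ybx1 at 3, 4 and 6 hpf, and embryos with a morpholino against pabpc1a at 4 and 6 hpf. The 8 rRNA-depleted libraries held embryos given 0.2 ng of alpha-amanitin, an inhibitor of RNA polymerase II, as 1-cell embryos and collected at 2, 4 and 6 hpf, and WT at 4 hpf. The ybx1 morphant libraries are titled only as MO, and the target is taken from the series description. No control morpholino is named, so the comparisons set injected embryos against WT. Only the amanitin course is described as biological replicates, with 100 embryos for each time point, so the p-values measure the spread between libraries, which may be technical.

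The full-grown oocyte is largely silent in transcription, and the early embryo lives on mRNA that the mother made. Such mRNAs are held in store or translated through the length of their poly(A) tails and the proteins bound to them, and most are destroyed around the time when the embryo's own genome is switched on. The 5 genes act at different steps of that life: mos encodes a kinase that drives the MAP kinase cascade and keeps the mature egg in meiotic arrest, zar1 and zar1l encode zinc finger proteins that bind stored mRNAs in the oocyte, slbp2 encodes a stem-loop binding protein of the kind that binds the 3′ hairpin of histone mRNAs (in Xenopus, the form of the oocyte), and cth1 encodes a CCCH zinc finger protein of the tristetraprolin family, whose mammalian members bind AU-rich elements and speed mRNA decay. Of the genes knocked down, ybx1 encodes an mRNA-binding protein with a cold shock domain, and pabpc1a a cytoplasmic protein that binds poly(A) tails.

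Levels are given as CPM, each gene's count relative to its library's total after TMM scaling, which sets each library against the typical mRNA, so a level says nothing of the amount of RNA in an embryo. In whole embryos, fewer cells with an mRNA and less of it per cell cannot be told apart. Poly(A) libraries held 48204100 to 100000375 counts in genes, and rRNA-depleted libraries 39882963 to 66381933. The targeted genes gave no clear check of the labels. An oligonucleotide that stops translation need not lower the mRNA, and how these 2 act was not established here. At 4 hpf ybx1 stood at 434 and 456 CPM in its morphants against 761 and 450 in WT (edgeR adjusted p = 0.0662). The gene pabpc1a was called lower, at 484 and 510 CPM in its morphants against 864 and 627 (log2 fold change -0.58, edgeR adjusted p = 0.00737). At 3 and 6 hpf ybx1 was above WT in its morphants (0.43 and 0.24, adjusted p = 0.115 and 0.346), and at 6 hpf pabpc1a was not called in its own (-0.20, adjusted p = 0.46). Between 22.2% and 46.1% of each poly(A) library fell on 1 gene that has no symbol. The WT libraries at 4 hpf stood apart from each other, with 4501 genes at least 2-fold apart, followed by the pabpc1a morphants of 6 hpf with 3114 and WT at 6 hpf with 2362. The other 11 pairs had 603 to 1635. The summed level of the 6 matched of 8 genes listed as first zygotic transcripts was 1064 CPM in the first of them and 602 in the other, and that of 6 enveloping layer genes was 1296 and 286 CPM. Of 4 matched markers of differentiated tissues, 1 passed the filter on low counts in the poly(A) libraries, at no more than 0.545 CPM. None passed it in the rRNA-depleted libraries. Low markers were thus dropped beforehand, so these values cannot show that the set was absent.

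From fertilisation to 6 hpf, 4 of the 5 mRNAs fell in the poly(A) libraries of WT by 55.8-fold (cth1) to 120-fold (mos), and zar1 fell far less. The log2 change was -6.91 for mos, -6.88 for slbp2, -6.30 for zar1l and -5.80 for cth1, and -0.81 for zar1 (edgeR adjusted p = 0.0022, against at most 4.24e-10 for the other 4). All 5 were called lower. For comparison, 34.4% of the 22377 genes tested were called lower, and the median change of all genes was 0.14.

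**Figure D1:**
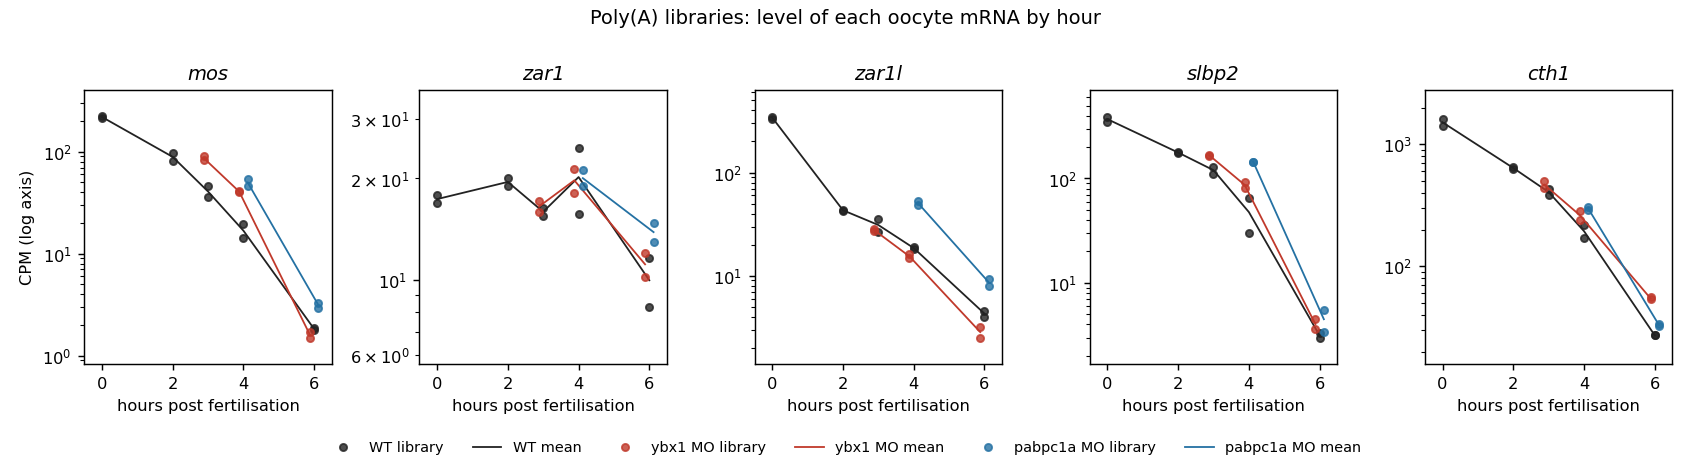
Level of each mRNA in CPM (log axis, its own range in each panel) against hours post fertilisation in the 20 poly(A) libraries, with 1 point per library and lines through the group means. In WT (black), mos fell from 222 and 216 CPM to 1.84 and 1.8 while zar1 stayed between 8.31 and 24.7. The pabpc1a MO libraries (blue) lie above WT at 4 hpf for mos, zar1l, slbp2 and cth1, and the ybx1 MO libraries (red) do so for mos, slbp2 and cth1.

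The kinase mRNA mos was at 222 and 216 CPM at 0 hpf, 96.1 and 81.9 at 2 hpf, 45.6 and 35.8 at 3 hpf, 14.2 and 19.4 at 4 hpf and 1.84 and 1.8 at 6 hpf in WT. Each hour lay below the one before, with no overlap between neighbouring groups. Here and below, groups of 2 libraries can lie apart by chance, and the share of all genes without overlap was not counted. All 4 steps were called, with log2 changes of -1.30 (SE 0.15, adjusted p = 4.64e-06), -1.13 (SE 0.15, adjusted p = 0.000526), -1.28 (SE 0.16, adjusted p = 7.46e-05) and -3.20 (SE 0.18, adjusted p = 8.35e-10) by edgeR's quasi-likelihood test. At 6 hpf these levels rest on few reads, the lowest count of mos in any library being 62.

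The histone-mRNA binding protein mRNA slbp2 was at 350 and 391 CPM at 0 hpf, 175 and 179 at 2 hpf, 129 and 111 at 3 hpf, 30.4 and 65 at 4 hpf and 3.28 and 2.99 at 6 hpf. Its groups also did not overlap from one hour to the next, but the pair at 4 hpf was spread by more than 2-fold. The steps from 3 to 4 and 4 to 6 hpf were log2 changes of -1.33 (SE 0.27, adjusted p = 0.00252) and -3.92 (SE 0.31, adjusted p = 9.89e-08), and -1.99 and -3.28 without the second library of 4 hpf. The step from 2 to 3 hpf was not called (-0.56, adjusted p = 0.286). The step from 0 to 2 hpf (-1.06, adjusted p = 0.00611) missed the threshold without the first library of 2 hpf (-1.04, adjusted p = 0.0511).

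For cth1 the WT libraries gave 1417 and 1610 CPM at 0 hpf, 646 and 632 at 2 hpf, 426 and 384 at 3 hpf, 170 and 218 at 4 hpf and 27.2 and 27.1 at 6 hpf. No neighbouring groups overlapped, and all 4 steps were called. The step from 2 to 3 hpf (-0.66, adjusted p = 0.00514) lost its call without the first or the second library of 2 hpf or the second of 3 hpf (adjusted p = 0.0722, 0.0508 and 0.103). From 4 to 6 hpf the log2 change was -2.84 (SE 0.13, adjusted p = 1.92e-10).

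With TMM scaling, the poly(A) level of the mRNA-binding protein gene zar1l fell most steeply first. It went from 333 and 349 CPM at 0 hpf to 42.4 and 43.8 at 2 hpf, and then to 35.7 and 26.3 at 3 hpf, 18.9 and 18.2 at 4 hpf and 4.6 and 4 at 6 hpf. The middle step from 2 to 3 hpf was not called (-0.48, adjusted p = 0.0729), but was without the first library of 3 hpf (-0.71, adjusted p = 0.0267), with DESeq2 (adjusted p = 0.0178) and with a minimum of 1 CPM (adjusted p = 0.0435). The first step was a log2 change of -2.98 (SE 0.15, edgeR adjusted p = 1.12e-09), and 0.862% of the genes tested had a more negative one. It made up 47.3% of the whole log2 fall of zar1l from 0 to 6 hpf, against 18.8% for mos, 15.4% for slbp2 and 21.5% for cth1. The last step from 4 to 6 hpf made up 33.4% of the fall for zar1l, 46.4% for mos, 57% for slbp2 and 48.9% for cth1. These shares depend on the scaling. With total counts alone, the median change of all genes rose by 0.74 in the first step and fell by 0.60 in the last. Such shifts make the first step of zar1l smaller and its last step larger, enough for the last step to be the steeper one under that scaling. The shares also rest on poly(A) selection alone. Without it, zar1l was at 303 CPM in amanitin embryos of 2 hpf. Those libraries were scaled apart and have no group of 0 hpf, so they do not show this step. Less zar1l mRNA and less uptake of it by poly(A) selection cannot be told apart in the first step.

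Its paralogue zar1 was the exception, at 17.9 and 16.9 CPM at 0 hpf, 19 and 20.1 at 2 hpf, 15.5 and 16.4 at 3 hpf, 24.7 and 15.7 at 4 hpf and 8.31 and 11.6 at 6 hpf. The libraries of 4 hpf overlapped with those of each earlier hour. No step was called before 4 hpf, although the one from 3 to 4 hpf was at 0.63 (adjusted p = 0.0152) without the second library of 4 hpf and at -0.06 (adjusted p = 0.906) without the first. The step from 4 to 6 hpf was called (-1.02, SE 0.21, adjusted p = 0.000416). This value depended on the scaling: it was -0.73 with median-of-ratios size factors, where the median change of all genes rose by 0.28, and -1.63 with total counts alone, where that median fell by 0.60. With total counts alone zar1 was also called higher at 2 than at 0 hpf (0.91, adjusted p = 0.00195), and slbp2 was not called lower (-0.31, adjusted p = 0.468), while the median of all genes rose by 0.74.

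Counted by step, 4 of the 5 mRNAs were called lower from 0 to 2 hpf, where 16.8% of all genes tested were. From 2 to 3 hpf it was 2 of 5 (mos and cth1) against 1.3% of genes, from 3 to 4 hpf 4 of 5 against 10.5%, and from 4 to 6 hpf 5 of 5 against 31.8%. None was called higher in any step. In a fit of the WT libraries of 3 and 4 hpf alone, the 4 calls of that step were lost (adjusted p = 0.0655 to 0.114), with log2 changes between -0.73 and -1.33.

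The rRNA-depleted libraries showed the same mRNAs without poly(A) selection and in embryos given an inhibitor of transcription. The 6 zygotic genes still rose there from 1.04 and 1.43 CPM at 2 hpf to 10.1 and 10.7 at 4 hpf. In that step 6 of 6 were called higher, against 15.6% of all genes. At 6 hpf they summed to 1.07 and 0.598 CPM, with 6 of 6 called lower than at 4 hpf, against 34.6%. With alpha-amanitin, mos, zar1l, slbp2 and cth1 still fell from 2 to 6 hpf and zar1 was not called. All 4 were higher in amanitin embryos at 4 hpf than in WT of the same hour.

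**Figure D2:**
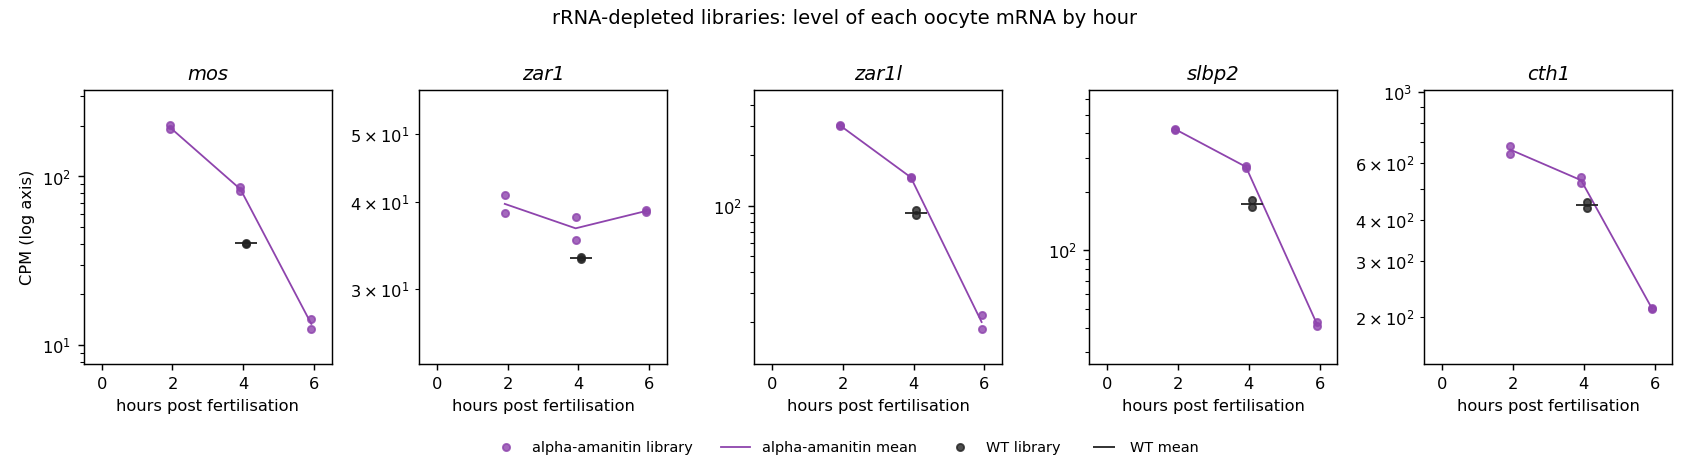
Level of each mRNA in CPM (log axis, its own range in each panel) against hours post fertilisation in the 8 rRNA-depleted libraries, with 1 point per library, a line through the alpha-amanitin means (purple) and a bar at the WT mean of 4 hpf (black). The WT libraries at 4 hpf lie below the amanitin libraries of that hour in every panel, and zar1 stays between 33.1 and 40.9 CPM.

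In amanitin embryos mos was at 201 and 191 CPM at 2 hpf, 86.4 and 81.6 at 4 hpf and 12.4 and 14.3 at 6 hpf, and zar1l was at 305 and 302, 150 and 146, and 22 and 18.1. The hours did not overlap for either gene. From 2 to 6 hpf the log2 change was -3.88 (SE 0.06, adjusted p = 1.42e-22) for mos and -3.92 (SE 0.07, adjusted p = 1.11e-12) for zar1l.

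The mRNA slbp2 was at 423 and 418 CPM at 2 hpf, 266 and 273 at 4 hpf and 41 and 43.1 at 6 hpf. For cth1 the values were 680 and 643 CPM, 521 and 543, and 214 and 213. Again no hour overlapped with the next, and the log2 changes from 2 to 6 hpf were -3.32 (SE 0.05, adjusted p = 9.32e-24) for slbp2 and -1.63 (SE 0.04, adjusted p = 4.37e-20) for cth1.

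For zar1 the amanitin libraries gave 40.9 and 38.6 CPM at 2 hpf, 35.3 and 38 at 4 hpf and 39 and 38.7 at 6 hpf. The first and the last hour overlapped, and the log2 change between them was -0.03 (SE 0.06, adjusted p = 0.644). Scaled by total counts alone it was -0.57 (adjusted p = 3.76e-08), a scaling under which the median of all genes fell by 0.47. From 4 to 6 hpf the sign itself turned with that scaling, from 0.08 to -0.42 (adjusted p = 0.235 and 2.63e-06), where the median fell by 0.51.

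Of the 5 mRNAs, 4 were called lower from 2 to 4 hpf in amanitin embryos, against 16.7% of the 21525 genes tested. The count was also 4 from 4 to 6 hpf, against 34.6%, and 4 from 2 to 6 hpf, against 35.1%. On the log2 scale more of the loss came in the later interval for each of these 4. At 4 hpf, 42.8% of the level of 2 hpf was left for mos, 48.8% for zar1l, 64% for slbp2 and 80.4% for cth1, and at 6 hpf 6.81%, 6.62%, 10% and 32.2%. In poly(A) WT libraries, 18.9%, 43%, 26.9% and 30.4% of the level of 2 hpf was left at 4 hpf, and 2.05%, 9.97%, 1.77% and 4.25% at 6 hpf. The 2 courses differ in library kind as well as in treatment, and were not tested against each other.

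Within the rRNA-depleted libraries the treatment could be tested at 4 hpf, where WT embryos had 40.5 and 40 CPM of mos, 87.4 and 94.5 of zar1l, 166 and 181 of slbp2 and 456 and 438 of cth1. All of these lay below both amanitin libraries of that hour. The log2 differences of WT from amanitin were -1.06 (SE 0.05, adjusted p = 1.26e-13) for mos, -0.70 (SE 0.06, adjusted p = 2.71e-06) for zar1l, -0.63 (SE 0.04, adjusted p = 1.24e-11) for slbp2 and -0.25 (SE 0.04, adjusted p = 2.96e-06) for cth1. For zar1, 33.1 and 33.4 CPM in WT stood against 35.3 and 38, a log2 difference of -0.14 (adjusted p = 0.0436).

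That made 5 of 5 called lower in WT, against 32.7% of all genes, but the call of zar1 was lost with DESeq2 (-0.08, adjusted p = 0.351), with median-of-ratios size factors (adjusted p = 0.24) and with a minimum of 1 CPM (adjusted p = 0.187). It was also lost without the second amanitin library (-0.10, adjusted p = 0.246) and without the first or the second WT library (adjusted p = 0.113 and 0.0786). The 6 zygotic genes summed to 888 and 886 CPM in WT and to 10.1 and 10.7 CPM in amanitin embryos of that hour.

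WT at 4 hpf was sequenced from both library kinds, which were scaled apart, so their levels are set side by side with no test. For zar1l the mean was 18.6 CPM after poly(A) selection and 90.9 after rRNA depletion, a log2 difference of -2.26. Only 2.1% of the 20571 genes in both tables had a lower value, and the median of all genes was -0.50. The difference was -1.85 for slbp2, -1.24 for mos, -1.20 for cth1 and -0.70 for zar1, so all 5 lay below the median.

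**Figure D3:**
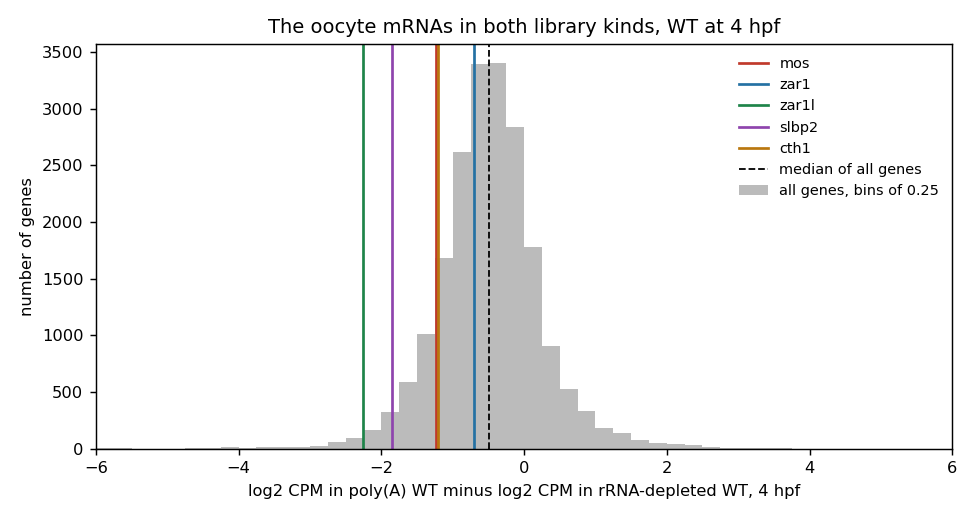
Number of genes (bars, bins of 0.25) by the log2 CPM in poly(A) WT minus that in rRNA-depleted WT at 4 hpf, with a coloured line at each mRNA and a dashed line at the median of all genes. The line of zar1l lies at -2.26, where 2.1% of genes are lower, and that of zar1 at -0.70 near the median of -0.50.

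At 2 hpf the poly(A) libraries are WT and the rRNA-depleted ones amanitin embryos, so the treatment differs too. There zar1l again had the lowest value of the 5, with 43.1 CPM against 303, a log2 difference of -2.80 with 1.77% of genes lower. For cth1 the levels were 639 and 662 CPM, a difference of -0.05 that lies above the median of -0.41. Poly(A) selection takes up mRNAs by their tails, and tail length was not measured here.

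In ybx1 morphants mos was called higher than in WT at 3 and 4 hpf, and not at 6 hpf. At 4 hpf slbp2 and cth1 were called higher as well, while zar1l was not called at 3 or 4 hpf and was called lower at 6 hpf. The mRNA of cth1 was the one called higher at 6 hpf.

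In ybx1 morphants mos was at 90.5 and 82.5 CPM at 3 hpf and 40 and 41.3 CPM at 4 hpf, above both WT libraries of the same hour. The log2 fold changes were 1.09 (SE 0.15, adjusted p = 0.000239) and 1.27 (SE 0.16, adjusted p = 3.38e-05). At 6 hpf the morphants had 1.49 and 1.71 CPM, just below WT (-0.20, adjusted p = 0.481). The effect at 6 hpf differed from that at 4 hpf by -1.47 (SE 0.25, adjusted p = 0.000533), and the effects at 4 and 3 hpf differed by 0.19 (adjusted p = 0.739).

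For slbp2 the ybx1 morphants had 169 and 165 CPM at 3 hpf, 80.5 and 93.2 at 4 hpf and 4.47 and 3.59 at 6 hpf. They did not overlap with WT at any hour, which says little with 2 libraries a group. The difference was called at 4 hpf (0.86, SE 0.27, adjusted p = 0.0241) and not at 3 hpf (0.47, adjusted p = 0.255) or 6 hpf (0.36, adjusted p = 0.406). The call at 4 hpf was lost without the first WT library (0.42, adjusted p = 0.151), the first morphant library (0.97, adjusted p = 0.0604) or the second (0.76, adjusted p = 0.123), and with no filter on low counts (adjusted p = 0.0574). Without the second WT library the value was 1.52 (adjusted p = 1.11e-05).

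The zinc finger mRNA cth1 was at 437 and 496 CPM at 3 hpf, 240 and 285 at 4 hpf and 55.5 and 53.6 at 6 hpf in ybx1 morphants. These libraries lay above WT at all 3 hours, but narrowly at 3 hpf, where the higher WT library was at 426 CPM. The log2 fold change was 0.20 at 3 hpf (adjusted p = 0.291), 0.44 at 4 hpf (SE 0.12, adjusted p = 0.0126) and 1.01 at 6 hpf (SE 0.12, adjusted p = 3.08e-05). The call at 4 hpf was lost without the first WT library (0.27, adjusted p = 0.164) or the second morphant library (0.31, adjusted p = 0.147).

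The effect on cth1 was larger at 6 than at 4 hpf by 0.57 (SE 0.17, adjusted p = 0.0233). This difference missed the threshold when any of 5 libraries was left out, among them the second WT library of 4 hpf (0.37, adjusted p = 0.0802), the second of 6 hpf (0.56, adjusted p = 0.0521) and the first ybx1 morphant library of 4 hpf (0.44, adjusted p = 0.13). The other 2 are the first and second morphant libraries of 6 hpf (adjusted p = 0.0826 and 0.0538).

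For zar1l the ybx1 morphants had 27 and 28.5 CPM at 3 hpf, 16.1 and 14.7 at 4 hpf and 3.19 and 2.5 at 6 hpf. They overlapped with WT at 3 hpf and lay below it at 4 and 6 hpf. The log2 fold changes were -0.16 (adjusted p = 0.495), -0.27 (adjusted p = 0.172) and -0.60 (SE 0.16, adjusted p = 0.0117). The last call was lost without the first WT library of 6 hpf (-0.48, adjusted p = 0.0962) or the second morphant library (-0.43, adjusted p = 0.154).

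At none of the 3 hours was zar1 called, with 15.9 and 17.1 CPM at 3 hpf, 18.1 and 21.4 at 4 hpf and 12.1 and 10.2 at 6 hpf in ybx1 morphants. These overlapped with WT throughout, and the log2 fold changes lay between -0.03 and 0.16. Without the first WT library of 4 hpf the value at that hour was 0.33 (adjusted p = 0.276).

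By count, 1 of 5 was called higher in ybx1 morphants at 3 hpf, against 4.56% of all genes, and 3 of 5 at 4 hpf, against 12.8%. At 6 hpf 1 was higher (11.9% of genes) and 1 lower (15.6%). The summed level of the zygotic genes was 3.09 and 2.64 CPM in ybx1 morphants at 3 hpf against 102 and 203 in WT. At 4 hpf it was 337 and 431 CPM against 1064 and 602. At 6 hpf it was higher in the morphants, 3013 and 3002 CPM against 1965 and 1723. Of these 6 genes, 6 were called lower at 3 hpf (10.2% of all genes) and 2 at 4 hpf (19.4%). At 6 hpf none was called in either direction. At 4 hpf the enveloping layer genes summed to 26.3 and 48.1 CPM in these morphants, and 4 genes of the yolk syncytial layer to 29.8 and 40.8 CPM against 277 and 143 in WT. Their part in the result was not tested.

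**Figure D4:**
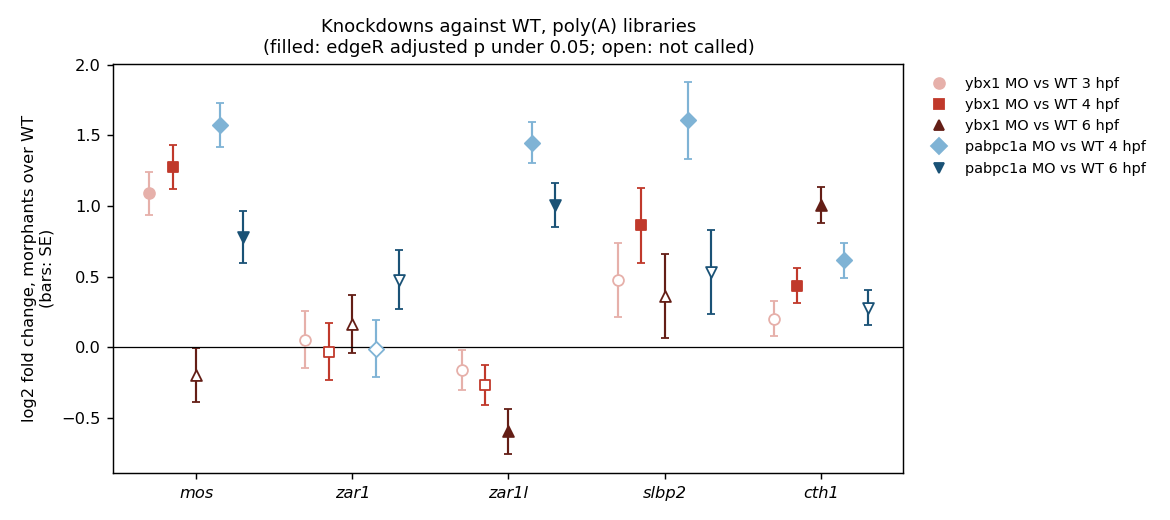
Log2 fold change of morphants over WT (vertical axis) for each mRNA in the 5 comparisons at a matched hour, with bars of 1 SE, filled symbols where the edgeR adjusted p was under 0.05 and open symbols where it was not. The blue points of zar1l lie at 1.45 and 1.01 and the red ones between -0.16 and -0.60, and those of zar1 lie between -0.03 and 0.48.

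In pabpc1a morphants all 4 declining mRNAs, zar1l among them, were called higher than in WT at 4 hpf. The morphants had 54 and 45.8 CPM of mos, 145 and 145 of slbp2, 48 and 53.3 of zar1l and 287 and 307 of cth1, each above both WT libraries. The log2 fold changes were 1.57 (SE 0.16, adjusted p = 1.04e-05) for mos, 1.60 (SE 0.27, adjusted p = 0.00059) for slbp2, 1.45 (SE 0.15, adjusted p = 1.06e-05) for zar1l and 0.61 (SE 0.12, adjusted p = 0.00123) for cth1. For zar1, 21.1 and 18.9 CPM fell within the WT range (-0.01, adjusted p = 0.979, and 0.40 with adjusted p = 0.173 without the first WT library).

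The 4 calls, against 13.5% of all genes called higher, were kept when any 1 library was left out, although slbp2 ran from 1.20 without the first WT library to 2.26 without the second. In a fit of the 4 libraries compared alone they were lost (adjusted p = 0.0692 to 0.087) at log2 fold changes of 0.62 to 1.61. The zygotic genes summed to 90.4 and 257 CPM in these morphants against 1064 and 602 CPM in WT, and the enveloping layer genes to 4.42 and 15 CPM against 1296 and 286. The 4 yolk syncytial layer genes summed to 16.8 and 48.6 CPM. Their part in the result was not tested.

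At 6 hpf the pabpc1a morphants had 2.93 and 3.31 CPM of mos (log2 fold change 0.78, SE 0.18, adjusted p = 0.0132) and 8 and 9.31 CPM of zar1l (1.01, SE 0.16, adjusted p = 0.000822). Both genes lay above WT, and these were the 2 of 5 called higher, against 4.55% of all genes. The call of mos was lost without the first or second WT library (adjusted p = 0.0524 and 0.0633) or the second morphant library (0.68, adjusted p = 0.11).

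The other 3 were not called at 6 hpf: slbp2 at 3.42 and 5.56 CPM (0.53, adjusted p = 0.307), cth1 at 32.4 and 33.5 CPM (0.28, adjusted p = 0.182) and zar1 at 14.7 and 13 CPM (0.48, adjusted p = 0.167). At this hour the zygotic genes summed to 1954 and 2162 CPM in the morphants and to 1965 and 1723 CPM in WT.

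The effect of pabpc1a knockdown on mos was smaller at 6 than at 4 hpf, by -0.79 (SE 0.24, adjusted p = 0.0256, 1 of 5 called lower against 8.72% of genes). It missed the threshold without the first WT library of 4 hpf (-0.64, adjusted p = 0.0757) or of 6 hpf (-0.76, adjusted p = 0.0757), or without the first morphant library of 4 hpf (-0.67, adjusted p = 0.102) or of 6 hpf (-0.71, adjusted p = 0.0782). For slbp2 the difference of -1.07 was not called (adjusted p = 0.0683), but it was without the second WT library of 4 hpf (-1.72, adjusted p = 8.96e-05) or the second morphant library of 6 hpf (-1.49, adjusted p = 0.033). Without the former, the differences of cth1 (-0.53, adjusted p = 0.0157) and zar1 (0.78, adjusted p = 0.0249) were called too. For ybx1 knockdown the same test called mos lower (11.6% of genes) and cth1 higher (14.8%), and none of the 5 between 3 and 4 hpf, where edgeR called 2.05% of genes in either direction and no member had an adjusted p below 0.549. Without the second WT library of 4 hpf, slbp2 was called in both (1.04, adjusted p = 0.00671 between 3 and 4 hpf, and -1.16, adjusted p = 0.00221 between 4 and 6 hpf).

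Set against each other, the 2 knockdowns differed more in zar1l than in the other 4 mRNAs at both hours. Of these 2, only the ybx1 morphant counts came with lines for reads outside genes. A difference in counting cannot be told apart from the knockdowns here, and zar1l alone of the 5 overlaps other genes in RefSeq. At 4 hpf zar1l was lower in ybx1 than in pabpc1a morphants by -1.72 on the log2 scale (SE 0.15, adjusted p = 1.23e-06), the 1 of 5 called lower, against 8.82% of genes. The other 4 lay between -0.02 and -0.74, with slbp2 at -0.74 (adjusted p = 0.0723). At 6 hpf zar1l was lower by -1.60 (SE 0.16, adjusted p = 2.34e-06) and mos by -0.98 (SE 0.18, adjusted p = 0.000866), 2 of 5 against 15.5% of genes, and cth1 was higher by 0.73 (SE 0.12, adjusted p = 0.00039), against 12.3%. These calls were kept when any 1 library was left out.

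Inside each knockdown the mRNAs went on falling. From 3 to 4 hpf 4 of 5 were called lower in ybx1 morphants, against 2.96% of genes, with log2 changes of -1.09 for mos, -0.94 for slbp2, -0.85 for zar1l and -0.83 for cth1. The call of slbp2 (adjusted p = 0.045) was lost whichever of the 4 libraries was left out (adjusted p = 0.181 to 0.205). From 4 to 6 hpf all 5 were called lower in ybx1 morphants, against 36.4% of genes, and in pabpc1a morphants, against 35.3%.

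The falls from 4 to 6 hpf were -4.67 for mos, -4.42 for slbp2, -2.43 for zar1l and -2.27 for cth1 with ybx1 knockdown, and -3.99, -4.99, -2.55 and -3.17 with pabpc1a knockdown. For zar1 they were -0.83 and -0.53. With total counts alone they were -1.56 and -1.30 (edgeR adjusted p = 2.93e-06 and 2.56e-05), where the median of all genes fell by 0.72 and 0.74. Neither was called with median-of-ratios size factors (-0.48 and -0.20, adjusted p = 0.0615 and 0.409), where that median rose by 0.35 and 0.32. The call in pabpc1a morphants was also lost without the first library of 4 hpf (adjusted p = 0.115) or the second of 6 hpf (adjusted p = 0.128).

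Each morphant library was also placed on the WT course, as the hour at which a straight line between the log2 of WT mean levels reaches its value. For mos the ybx1 morphant libraries of 3 hpf matched WT of 1.96 and 2.1 hpf, and those of 4 hpf matched 3.02 and 2.98 hpf. For slbp2 they matched 2.13 and 2.18 hpf at 3 hpf, and 3.43 and 3.27 hpf at 4 hpf. For cth1 the hours were 2.83 and 2.56, and 3.71 and 3.48.

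The 4 mRNAs did not give 1 common hour. For zar1l the ybx1 morphants matched WT hours later than their own, 3.27 and 3.17 at 3 hpf and 4.19 and 4.32 at 4 hpf. However, zar1l was not called against WT of the same hour (-0.16 and -0.27, edgeR adjusted p = 0.495 and 0.172). At 3 hpf its libraries overlapped with WT. The pabpc1a morphants of 4 hpf matched WT of 1.9 and 1.79 hpf by zar1l, 2.64 and 2.85 hpf by mos, 2.51 and 2.52 hpf by slbp2 and 3.47 and 3.38 hpf by cth1. At 6 hpf the ybx1 morphants lay below the last WT level by mos and zar1l, so that no WT hour was reached, and matched 5.74 and 5.9 hpf by slbp2 and 5.27 and 5.31 hpf by cth1. The pabpc1a morphants of 6 hpf matched between 4.94 (zar1l) and 5.94 hpf (slbp2). These hours are descriptions with no test.

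**Figure D5:**
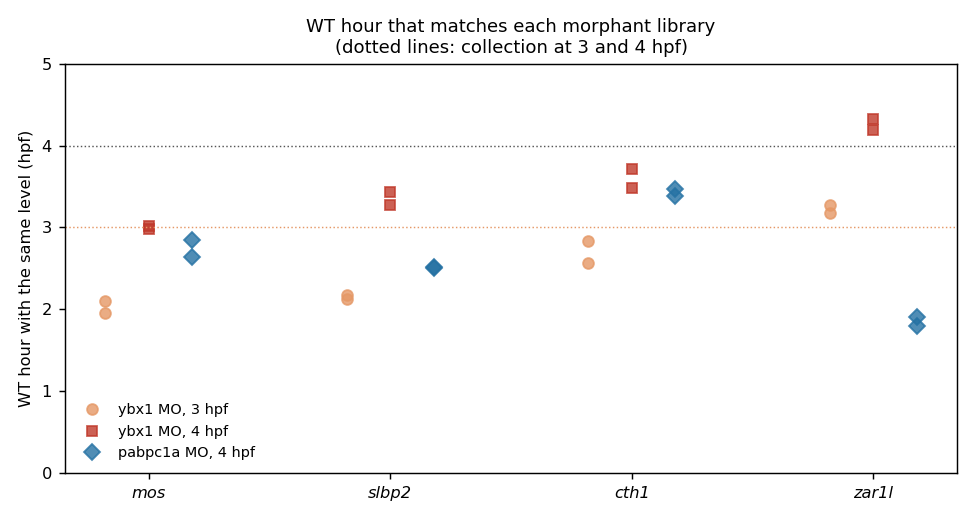
WT hour with the same level (vertical axis, hpf) for each morphant library of 3 or 4 hpf and each of the 4 declining mRNAs, with dotted lines at the hours of collection. The ybx1 morphants of 4 hpf (red squares) lie at 3.02 and 2.98 by mos and at 4.19 and 4.32 by zar1l, and the pabpc1a morphants (blue) at 1.9 and 1.79 by zar1l.

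The morphants were also tested against the WT hour before their own. In ybx1 morphants of 3 hpf against WT of 2 hpf, mos differed by -0.04 (adjusted p = 0.93) with overlapping libraries, whereas zar1l was lower by -0.64 (adjusted p = 0.00709) and cth1 by -0.45 (adjusted p = 0.0195), 2 of 5 against 8.25% of genes. With 1 library left out both kept their direction, at -0.68 to -0.60 for zar1l and -0.55 to -0.37 for cth1. The call of zar1l was lost without the second WT library or either morphant library, and that of cth1 without any 1 of the 4.

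In ybx1 morphants of 4 hpf against WT of 3 hpf, mos differed by -0.0017 (adjusted p = 1), zar1l was lower by -1.01 (SE 0.15, adjusted p = 0.000327) and cth1 by -0.63 (SE 0.12, adjusted p = 0.00296), 2 of 5 against 7.94% of genes. The call of cth1 was lost without the first morphant library (-0.51, adjusted p = 0.057). In pabpc1a morphants of 4 hpf against WT of 3 hpf, zar1l was higher by 0.71 (adjusted p = 0.0102, against 2.3% of genes) and cth1 lower by -0.45 (adjusted p = 0.0431, against 2.93%). Without the second WT library of 3 hpf zar1l was at 0.50 (adjusted p = 0.166), without either morphant library its adjusted p was 0.0574 and 0.0739, and the call of cth1 was lost without any 1 library (adjusted p = 0.103 to 0.287).

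Over the 10 poly(A) groups the order of levels was highest in WT at 0 hpf for all but zar1. The next places differed: WT at 2 hpf was second for mos, slbp2 and cth1, and pabpc1a morphants of 4 hpf were second for zar1l, above WT at 2 hpf. Neighbours in that order overlapped for mos between WT at 2 hpf and ybx1 morphants at 3 hpf, and between WT at 3 hpf and ybx1 morphants at 4 hpf. For zar1l they overlapped between WT and ybx1 morphants at 3 hpf, for slbp2 between the pabpc1a and ybx1 morphants at 6 hpf, and for cth1 nowhere. For zar1 most neighbours overlapped, and its highest mean was that of WT at 4 hpf, 20.2 ± 6.38 CPM (SD, n = 2).

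The closeness of 2 genes' courses was measured as the root mean square difference of their log2 levels over the 14 group means, centred within each library kind. Among genes with a symbol and at least 10 CPM on average (6817 compared), those nearest to mos were sinup at 0.31, slbp2 at 0.36 and micall2b at 0.44. For slbp2 they were sinup at 0.28, ppp1r3c2b at 0.32 and mos at 0.36. For cth1 they were si:dkey-10f21.4 at 0.27, ptpdc1a at 0.33 and tpm1 at 0.33, for zar1l zufsp at 0.33, zgc:114123 at 0.44 and org at 0.46, and for zar1 lrp13 at 0.14, si:dkeyp-104h9.5 at 0.16 and mettl27 at 0.16. The measure is small between any genes that change little, so these last values do not mean a closer shape. Pearson correlations with zar1 were 0.87, 0.84 and 0.84, against 0.96 to 0.99 for the genes nearest to the other members.

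By the root mean square difference, the pair zar1 and zar1l lay 1.55 apart. This was farther than zar1l from cth1 (0.81) or from mos (0.83). In the gene table of RefSeq, zar1l overlaps 2 other genes, and no source used here says whether the counting used strand. Part of its counts may therefore belong to them.

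Other oocyte and egg mRNAs, a list of 29 symbols of which 22 were matched and tested, mostly fell too in the poly(A) libraries of WT. From 0 to 6 hpf 21 of 22 were called lower in WT and none higher, against 34.4% and 38.6% of all genes, with a median log2 change of -3.69. Examples are btg4, an adaptor of the CCR4-NOT deadenylase (from 669 to 3.3 CPM, -7.63), kpna7, an oocyte importin (-6.57), and dazl, a germ line RNA-binding protein (-6.19). From 0 to 2 hpf 14 were called lower (16.8% of all genes), dazl the most (-2.23), and 2 higher (17.6%), buc, which organises the Balbiani body of the oocyte (0.86), and tdrd6, a tudor protein of germ granules (0.90). The fall was less general in amanitin embryos. From 2 to 6 hpf 13 of the 22 were called lower and 6 higher there (35.1% and 34.9% of all genes), with a median of -0.24.

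The knockdown results of this list differed by hour. At 6 hpf 7 of these 22 were called higher and 6 lower in ybx1 morphants, where 11.9% and 15.6% of all genes were. In pabpc1a morphants of that hour 3 were higher and none lower (4.55% and 4.61% of all genes). At 4 hpf 12 of these 22 were called higher and 1 lower in ybx1 morphants, where 12.8% and 19.4% of all genes were, with a median of 0.46 against -0.06 over all genes. The highest was tdrd6 (1.36), and the lower one was zp3b, an egg coat protein gene (-0.47). In pabpc1a morphants 14 were higher and none lower (13.5% and 20.8% of all genes, median 0.61 against -0.08), led by btg4 (1.97) and org (1.89). Without the first WT library of 4 hpf, an alternative chosen after seeing the data, 7 were called higher and 2 lower in ybx1 morphants, and 12 higher and none lower in pabpc1a morphants.

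Genes around the Mos kinase went both ways. Of 16 genes of the MAP kinase cascade and meiotic arrest, 9 were called lower and 5 higher from 0 to 6 hpf in WT (median -0.92), where 34.4% of all genes were called lower and 38.6% higher. The oocyte kinase gene wee2 fell by 4.33 and the cyclin gene ccnb2 by 3.31, and wee1, the somatic counterpart of wee2, rose by 4.23 on the log2 scale. In amanitin embryos from 2 to 6 hpf 11 were lower and 4 higher, against 35.1% and 34.9% of all genes, with cdk1 at -2.77 and bub1 at 1.02.

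Of 9 genes of histone mRNA processing, among which the somatic slbp was not matched, 4 were called lower and 4 higher from 0 to 6 hpf in WT (median 0.18), shares near those of all genes (34.4% and 38.6%). The exonuclease gene eri1 was at -1.80 and the helicase gene upf1 at 1.57. Of 15 genes for the control of stored mRNA, 8 were lower and 5 higher over the same hours, the latter near the share of all genes. Here patl2 was at -4.08, the oocyte poly(A)-binding protein gene pabpc1l at -3.71 and ybx1 itself at 1.74. In amanitin embryos 4 of the 15 were lower and 10 higher from 2 to 6 hpf (35.1% and 34.9% of all genes), ybx1 again among them (1.44).

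Of 20 genes of CCCH zinc finger proteins and mRNA decay, 10 were called lower and 6 higher in WT from 0 to 6 hpf, against 34.4% and 38.6% of all genes, with the deadenylase gene cnot7 at -4.12 and the decapping scaffold gene edc4 at 2.29. The matched relative of cth1 in the tristetraprolin family, zfp36l2, was at 114 and 130 CPM at 0 hpf, 32.5 and 31.7 at 2 hpf and 24.4 and 24 at 6 hpf in WT. It fell in the first interval (-1.93, adjusted p = 1.97e-06) and lay between 21.6 and 45.7 CPM in the WT libraries from 2 hpf on. In amanitin embryos it went from 68 and 71.6 CPM at 2 hpf to 4.63 and 6.56 at 6 hpf, a log2 change of -3.64 (adjusted p = 4.72e-13). Most of the list went the other way over those hours. Of its 20 genes, 14 were called higher and 5 lower, against 34.9% and 35.1% of all genes, with a median of 0.70.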

How the data were processed

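The authors deposited 1 table of raw counts per library, the number of reads per Ensembl gene, for which the submitters' processing notes name TopHat2 2.1.1 and HTSeq 0.6.0. No source used here gives the genome build, annotation release or strand setting, and no positions are reported. Summary lines at the end of some tables were left out of totals. Lines for reads outside genes stood in all tables of ybx1 morphants and rRNA-depleted libraries. The WT poly(A) and pabpc1a morphant tables had none. Whether these tables were also made differently is not known, so such a difference cannot be told apart from the ybx1 knockdown. Symbols came from a reference table of gene names.

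Library kinds were fitted apart in R 4.3.3 with edgeR 4.0.16: filterByExpr by group, TMM scaling, robust quasi-likelihood tests over all 20 or all 8 libraries (10 and 4 residual degrees of freedom), and Benjamini-Hochberg adjustment over the 22377 or 21525 genes tested, threshold 0.05. A change of effect between hours was an interaction contrast. The test was tried on simulated counts with known changes. The members and lists were chosen with earlier results of these data known. From each list, the text may name the 3 called members with the lowest and the 2 with the highest log2 fold change and at least 10 CPM, the 3 genes nearest to each member, and zfp36l2. Alternatives were DESeq2 1.42.0, other scalings, filters and fits, a replicate block and leaving out each library. Spike-in counts were not used here.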

Additional observations from a re-analysis of the deposited data

Results flagged for a closer look

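The effect of a knockdown changed between 4 and 6 hpf, by edgeR's interaction test, for 3 pairs of gene and knockdown. With ybx1 MO 1 of 5 was called higher and 1 lower, against 14.8% and 11.6% of all genes. With pabpc1a MO 1 of 5 was called lower, against 8.72%. These counts say little about the 5 mRNAs as a set. For mos the ybx1 MO effect was 1.27 at 4 hpf and -0.20 at 6 hpf, a change of -1.47 on the log2 scale, kept when any 1 library was left out. For cth1 the ybx1 MO effect was 0.44 at 4 hpf and 1.01 at 6 hpf, a change of 0.57. For mos the pabpc1a MO effect was 1.57 at 4 hpf and 0.78 at 6 hpf, a change of -0.79. The last 2 changes missed the threshold when single libraries were left out. At 6 hpf the means of mos were 1.82 CPM in WT, 1.6 in ybx1 and 3.12 in pabpc1a morphants, so its effects at that hour rest on few reads. With 2 libraries in every group, no library could be tested as standing apart from its group.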

How the results depend on the processing

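Of the 125 log2 fold changes of the 5 mRNAs, the direction and the side of the threshold were kept by 123 without a filter on low counts, 121 with at least 1 CPM in 2 libraries, 117 with DESeq2, 117 with median-of-ratios size factors, 117 with the most abundant gene left out, 112 with total counts alone and 102 with only the groups compared in the fit. The samples' replicate numbers gave little sign of pairing. Differences of replicate 1 from 2 correlated at -0.1122 to 0.1694 over 45 pairs of poly(A) groups, 2 of them over 0.1. Over 6 others it was -0.0257 to 0.0163. Low correlations cannot exclude a shared clutch or batch. With a replicate block the count of mRNAs called differed for WT against amanitin, 4 in place of 5. For the other alternatives only the larger changes of a count are listed. Smaller ones with DESeq2 were a call gained by zar1l from 2 to 3 hpf in WT and calls lost by zar1. Those of zar1 were from 4 to 6 hpf within each knockdown and in WT against amanitin. With DESeq2, the count called became 2 between the knockdowns at 4 hpf and 2 for the change of the pabpc1a MO effect. With median-of-ratios size factors these were also 2 and 2, and pabpc1a MO of 4 hpf against WT of 3 hpf gave 1. Total counts alone gave 1 for ybx1 MO against WT at 4 hpf, 1 for pabpc1a MO at 6 hpf, 1 for ybx1 MO of 3 hpf against WT of 2 hpf, 0 for pabpc1a MO of 4 hpf against WT of 3 hpf and 1 for the change of the ybx1 MO effect from 4 to 6 hpf. The minimum of 1 CPM gave 2 between the knockdowns at 4 hpf. Leaving out the most abundant gene gave 1 for each of those comparisons with an earlier WT hour and 2 for the change of the pabpc1a MO effect. With only the groups compared, the counts were 5 and 0 for WT from 2 to 3 and 3 to 4 hpf, 2, 1 and 1 for ybx1 MO at 3, 4 and 6 hpf, 0 and 0 for pabpc1a MO at 4 and 6 hpf, 2 between the knockdowns at 4 hpf, and 1 and 0 for the changes of the ybx1 and pabpc1a MO effects from 4 to 6 hpf. The number of all genes called moved with the setting too. Between the knockdowns at 4 hpf it was 3754 of 22377 in the reported fit. It was 4912 of 19774 with DESeq2 and 2486 of 22377 with total counts alone. A changed count is therefore no result about these 5 mRNAs alone. The cause of these differences was not tested.

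Leaving out 1 library at a time, where a lone library is assumed to vary like the other groups, gave counts of 3 to 4 for WT from 0 to 2 hpf, 1 to 3 from 2 to 3, 4 to 5 from 3 to 4, and 5 from 4 to 6 and from 0 to 6 hpf. It gave 1, 1 to 3 and 1 to 2 for ybx1 MO at 3, 4 and 6 hpf, 4 and 1 to 2 for pabpc1a MO at 4 and 6 hpf, 1 and 3 between the knockdowns, 3 and 5 within ybx1 MO, 4 to 5 within pabpc1a MO, 0 to 1, 1 to 2 and 0 to 1 against the earlier WT hour (ybx1 MO of 3 and 4 hpf, pabpc1a MO), 0 to 1, 1 to 2 and 0 to 4 for the changes of effect, 4 for each amanitin step, and 4 to 5 for WT against amanitin.

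No value that turned its sign was called in the reported fit. For ybx1 MO of 3 hpf against WT of 2 hpf, mos was at 0.0101 with DESeq2, 0.0102 with median-of-ratios factors and 0.0587 without the most abundant gene, and slbp2 at 0.0131 without it. For ybx1 MO of 4 hpf against WT of 3 hpf, mos was at 0.0168, 0.0169 and 0.0043 under the same settings, and at 0.0004 with the replicate block. For pabpc1a MO at 4 hpf, zar1 was at 0.1067 with total counts alone and 0.0227 without the most abundant gene. For amanitin from 4 to 6 hpf, zar1 was at -0.4237 with total counts alone, and this one passed the threshold. Leaving out 1 library at a time, the log2 values that turned their sign ranged as follows. For zar1 they ran from -0.0605 to 0.63 for WT from 3 to 4 hpf, from -0.0030 to 0.11, -0.32 to 0.33 and -0.0621 to 0.41 for ybx1 MO at 3, 4 and 6 hpf, from -0.30 to 0.40 for pabpc1a MO at 4 hpf, from -0.14 to 0.10 between the knockdowns at 4 hpf, from -0.37 to 0.24 and -0.16 to 0.48 for the earlier and the later change of the ybx1 MO effect, and from -0.0811 to 0.0048 for amanitin from 2 to 6 hpf. For mos they ran from -0.16 to 0.08 and from -0.17 to 0.19 for ybx1 MO of 3 and 4 hpf against the earlier WT hour, and from -0.0573 to 0.43 for the change of the ybx1 MO effect from 3 to 4 hpf. For zar1l they ran from -0.37 to 0.0749 for ybx1 MO at 3 hpf and from -0.34 to 0.10 for that change of effect, and for slbp2 from -0.0918 to 1.04 for it and from -0.47 to 0.25 between the knockdowns at 6 hpf.

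Depth limits mos at 6 hpf most, with 62 counts in the lowest library. With 2 libraries a group, p-values rest on a spread shared across groups, and without spike-ins no change of total mRNA can be seen. Spike-in scaling was not run.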
